A study of Mus musculus with 2 samples.

Results

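Pairs of transcribed regions that lie on opposite strands of the same stretch of the mouse genome were examined in mammary gland RNA. The deposited table holds contigs, which are unbroken stretches of read coverage called separately on each strand. Members were chosen by 3 measured properties: position off the mitochondrial chromosome, a score column under 0.1, and an overlap of 100 nt or more with a contig of the other strand that met the same limit. Of 311948 contigs off the mitochondrial chromosome with a score under 0.1, 15694 (5.03%) were members, 7867 on the plus strand and 7827 on the minus strand, and they formed 8896 overlapping pairs. Scores fall as levels rise (Spearman rho -0.85 over the 700384 contigs of the table, a description with no test), so the limit also selected on level, and no number on level below is a test of the membership rule.

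The RNA came from mammary gland of C57BL/6J mice aged 8 weeks, from littermates of mixed sex that the labels describe as pooled, with no allele or treatment. There is 1 group of 2 libraries, biological replicates 1 and 2, and no contrast. The libraries are stranded paired-end libraries of poly(A)-selected, rRNA-depleted RNA over 200 nt, with spike-in RNAs, read at 76 nt from each end. The contig and junction tables, on the mm9 build, each cover the whole series and name no replicate, so a contig has 1 level and no replicate error, while gene tables on mm10 give each library its own TPM.

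The gene tables held 42400470 expected counts for replicate 2 and 56323489 for replicate 1. The libraries stood apart in tissue markers. The 4 skeletal muscle markers summed to 8.18 TPM in replicate 2, against 18246 TPM in replicate 1, and the brown fat gene Ucp1 stood at 100.47 TPM in replicate 2, against 709.9 TPM in replicate 1. All 5 adipocyte markers and all 5 luminal epithelial markers reached 1 TPM in both libraries, with sums of 4541 and 1504 TPM in replicate 2, against 4669 and 806 TPM in replicate 1. The contig table cannot be split by library, so contig results could not be given without replicate 1, and how far its muscle RNA enters them was not tested.

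A stretch of DNA can be copied into RNA from either strand. Neighbouring genes that run toward each other can share their 3′ ends, and neighbours that run away from each other often start from a common stretch of promoter DNA, called a bidirectional promoter. Non-coding antisense RNAs are made within or across other genes, and some of them are known to affect the partner's transcription, splicing or stability. In a strand-specific library such pairs appear as overlapping contigs on the 2 strands, and a small share of reads assigned to the wrong strand can appear the same way.

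The promoters of 2 divergent gene pairs and the 3′ ends of 2 convergent gene pairs are printed as examples of where the genes of a pair start or end. Promoter sequences are from RefSeq on GRCm38.p6 and span 250 bases before to 50 after the gene's start, 300 bases in all, read along the gene's own strand. Capitals mark GGGCGG, the GC box, and CCAAT, each on either strand. The starts of Col4a2 and Col4a1 lie 21 nt apart, with the plus-strand start to the left, so their windows, chr8:11312555-11312854 on the plus strand and chr8:11312777-11313076 on the minus strand, share 78 bases. The GC box near the end of the Col4a2 window is the same site as the CCGCCC near the end of the Col4a1 window.
Col4a2: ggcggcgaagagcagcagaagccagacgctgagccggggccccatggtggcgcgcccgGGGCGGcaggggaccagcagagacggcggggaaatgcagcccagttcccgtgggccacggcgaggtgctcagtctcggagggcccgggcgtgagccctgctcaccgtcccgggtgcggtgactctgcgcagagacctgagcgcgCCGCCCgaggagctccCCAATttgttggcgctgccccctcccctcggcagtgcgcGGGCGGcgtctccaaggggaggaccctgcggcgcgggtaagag
Col4a1: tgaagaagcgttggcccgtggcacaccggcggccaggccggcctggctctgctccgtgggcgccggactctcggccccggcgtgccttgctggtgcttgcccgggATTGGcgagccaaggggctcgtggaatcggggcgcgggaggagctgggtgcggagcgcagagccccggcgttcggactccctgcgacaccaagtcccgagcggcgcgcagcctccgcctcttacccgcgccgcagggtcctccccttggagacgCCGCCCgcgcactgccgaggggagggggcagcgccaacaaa

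The starts of Surf2 and Surf1 lie 122 nt apart, again with the plus-strand start to the left, so the genes overlap at their starts. Their windows, chr2:26916158-26916457 on the plus strand and chr2:26916481-26916780 on the minus strand, do not share a base. The Surf2 window holds neither motif, and the Surf1 window holds 1 GC box on its other strand.
Surf2: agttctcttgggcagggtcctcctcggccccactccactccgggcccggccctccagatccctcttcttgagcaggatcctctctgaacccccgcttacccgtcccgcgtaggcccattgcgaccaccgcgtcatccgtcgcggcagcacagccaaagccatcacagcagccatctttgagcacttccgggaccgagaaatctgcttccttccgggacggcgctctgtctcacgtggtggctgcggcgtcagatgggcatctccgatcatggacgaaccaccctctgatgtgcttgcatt
Surf1: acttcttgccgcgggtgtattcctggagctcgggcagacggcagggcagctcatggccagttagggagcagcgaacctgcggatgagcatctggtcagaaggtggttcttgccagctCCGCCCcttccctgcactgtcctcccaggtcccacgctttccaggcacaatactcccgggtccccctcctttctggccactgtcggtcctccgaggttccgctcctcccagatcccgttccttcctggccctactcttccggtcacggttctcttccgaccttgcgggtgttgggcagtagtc

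Of 181 head-to-head gene pairs found below, 137 had both promoters in the RefSeq table, and the 2 windows of a pair shared bases in 97 of them. In 107 of the 137 the plus-strand start lies to the right of the minus-strand start, so the genes do not overlap at these starts. The 2 printed pairs are of the less common kind. Where a gene had several promoters, the 2 of a pair with the nearest starts were taken, which favours shared bases. Among the 274 promoter windows, 73.4% held GGGCGG or its reverse complement CCGCCC, against 35.7% of all 32851 windows. CCAAT or ATTGG was found in 33.9% of them, against 37.4% of all windows, and TATAAA or TTTATA in 4.01%, against 13.6%. The median number of CG dinucleotides was 28 per window in these promoters and 7 in all promoters. All windows were taken without regard to expression, while the pair genes were named through junctions and are seldom low, and no comparison with expressed genes alone was made. A site in bases that 2 windows share is counted in both. A motif match is a description of the letters and not a bound site.

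For convergent pairs the last 30 bases of an annotated transcript of each gene are shown, from GENCODE M21 transcripts on mm10, with the polyadenylation hexamer AATAAA in capitals. Only ends with AATAAA or ATTAAA in the last 30 bases that lay inside a transcript of the partner were considered. For each gene, the one nearest to the 3′ end of such a partner transcript was taken. In Ilk and Taf10 both ends cover the same 30 bases, chr7:105742896-105742925, so each is the exact reverse complement of the other. Each strand carries its own AATAAA within them, as the choice of ends required. These bases are a small part of the overlap, since the M21 exons of Ilk and Taf10 overlap by 2106 nt. In Mea1 and Ppp2r5d the last 30 bases, chr17:46683073-46683102 on the plus strand and chr17:46682991-46683020 on the minus strand, do not meet. The span from the printed minus-strand end to the printed plus-strand end is 112 nt. A Mea1 transcript that contains the printed Ppp2r5d bases ends 17 nt past them, so the ends shown are not the nearest.
Ilk: ctgtcacAATAAAgtttattatgaaaacag
Taf10: ctgttttcatAATAAActttattgtgacag
Mea1: ggagAATAAAgcaccctgtgtacacagcca
Ppp2r5d: tacagaactgAATAAAgtgggtctctgaga

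Of 242 tail-to-tail gene pairs found below, 135 had an annotated end with AATAAA or ATTAAA in its last 30 bases that lay inside a transcript of the partner, and 58 had this for both genes. Over all 134529 M21 transcripts of 200 nt or more, 31.1% carried either hexamer in the last 30 bases.

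The median overlap was 332 nt, with quartiles of 227 and 485 nt and a longest overlap of 4487 nt. In 4267 pairs (48.0%) the shorter contig lay wholly inside the longer one, in 2946 (33.1%) the 5′ parts of the contigs overlapped, called head to head, and in 1683 (18.9%) the 3′ parts overlapped, called tail to tail. The overlap covered at least 50% of the shorter contig in 84.2% of pairs. Mirror images were rare: in 25 pairs (0.281%) both ends agreed within 10 nt.

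**Figure D1:**
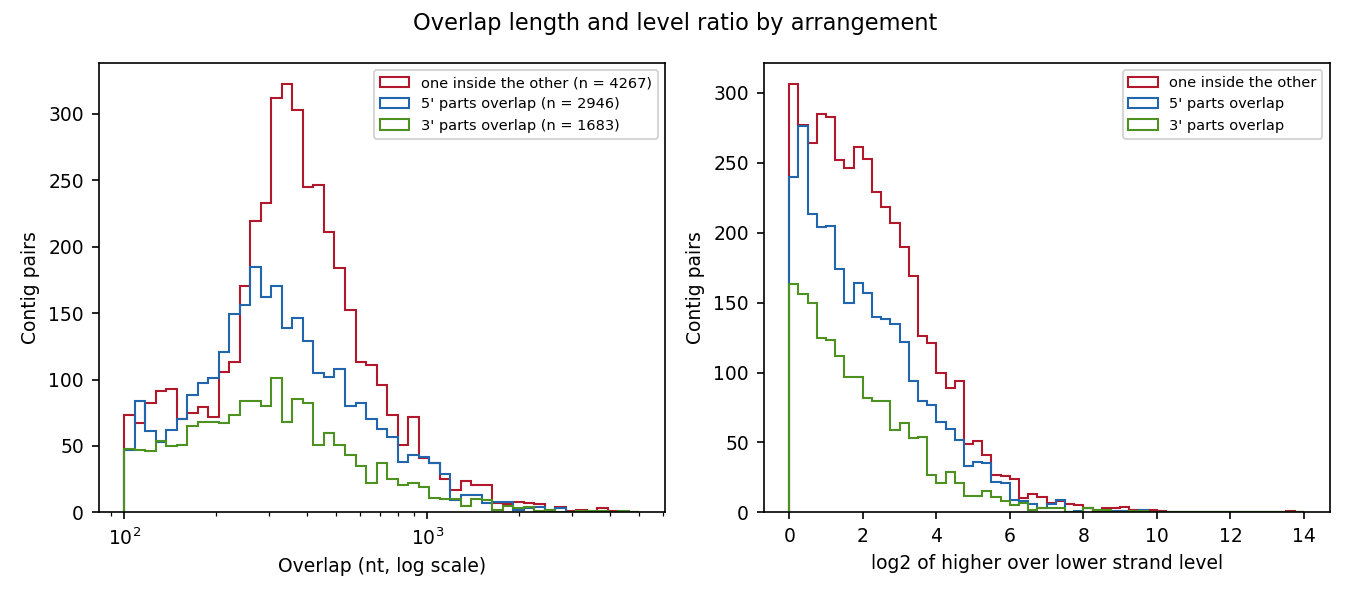
Left, number of contig pairs by overlap in nt on a log scale. Right, number of pairs by log2 ratio of the higher over the lower strand's level. Lines separate the 4267 pairs with a contig wholly inside its partner, the 2946 whose 5′ parts overlap and the 1683 whose 3′ parts overlap. Median overlaps are 355, 310 and 295 nt.

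Members were longer than other contigs, with a median of 588 nt, against 415 nt for the 296254 non-members and 424.5 nt for the 286712 non-members of 100 nt or more. Length enters the rule, since a contig under 100 nt cannot be a member and a longer one has more room to meet a partner. Their median level was 0.666 in members, 0.511 in non-members and 0.487 in non-members of 100 nt or more. The level is a signal with no stated unit, and it behaved as a quantity per base: the whole number in the last column, divided by contig length, was between 18.6 and 18.8 times the level in all 35782 contigs with a level above 5. Most members met 1 partner: 13967 of 15694 (89.0%) had a single overlapping contig and the most was 9. The pairs formed 6798 connected groups, of which 5433 held 2 contigs and the largest held 12, so pairs that share a contig are not independent observations.

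Members were spread over all autosomes and the X chromosome. They made up 7.27% of contigs on chromosome 19, 6.75% on chromosome 11, 6.67% on chromosome 7 and 6.49% on chromosome 17, against 3.41% on chromosome 18 and 2.74% on the X chromosome. Chromosome 11 held the most pairs, 913.

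The 2 strands were seldom balanced. The higher strand had a median level of 1.82 and the lower strand a median of 0.378. The median log2 ratio of the higher over the lower strand was 1.83, a fold of 3.55, with quartiles of 0.82 and 3.05. The strands were within 2-fold of each other in 2672 pairs (30.04%), within 4-fold in 4825 (54.2%) and more than 100-fold apart in 116. Which strand was higher did not favour the plus strand, which was higher in 4382 pairs (49.3%), while 8 pairs were equal. Across pairs, the levels of the plus and the minus strand were nearly unrelated, with a Pearson r of 0.059 on log2 levels and a Spearman rho of 0.035, given as a description over 8896 pairs that share 1 table. The ratio is at least 1 by construction, since the higher strand is named from the values.

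The lower strand was higher where its partner was higher, with a Spearman rho of 0.52 over pairs. This rho is in part fixed by naming the strands from their values. As a share of its partner, the lower strand fell behind. That fall is also in part built in, since the classes below are set by the partner's level. A lower strand cannot exceed its partner, and within the score limit none was under 0.09. Where the higher strand was under 0.5, the lower strand had a median level of 0.232 and a median share of 71.6% of its partner. Where the higher strand was between 10 and 50, the lower strand had a median level of 0.996 and a median share of 5.91%. In the 41 pairs whose higher strand was over 100, the lower strand had a median level of 0.558 and a median share of 0.241%. Each share was taken within its pair. In 30 of those 41 pairs the lower strand was under 1% of the higher one. Whether reads assigned to the wrong strand contribute to these low partners was not tested.

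**Figure D2:**
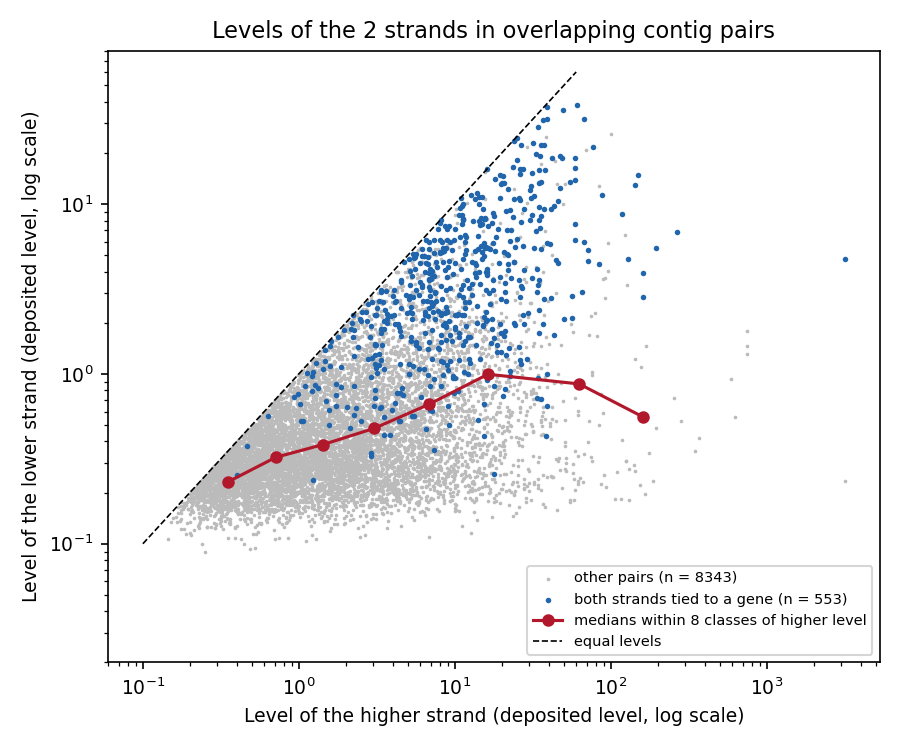
Deposited level of the higher strand (x, log scale) against that of the lower strand (y, log scale) for 8896 contig pairs, with the 553 pairs whose strands were both tied to a gene in blue. Red points are medians within 8 classes of the higher level, where the lower strand's median stays between 0.232 and 0.996 while the higher strand's goes past 100. No pair can lie above the dashed line of equal levels.

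Arrangement made a small difference to the ratio. The median log2 ratio was 1.96 for pairs with a contig inside its partner, 1.77 head to head and 1.53 tail to tail. In pairs with a contig inside its partner, the inner contig was the lower one in 2993 of 4267 (70.1%).

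The 16 pairs with an overlap of exactly 100 nt had a median lower level of 0.654, and the 15 pairs at 99 nt, just outside, had 0.291. Their median log2 ratios were 1.42 and 1.49. The 296 pairs whose higher score was 0.09 had a median lower level of 0.197, and the 423 pairs at 0.10, just outside, had 0.191.

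Splice junctions were not used to choose the members. A contig was counted as joined where a junction of its own strand, with a score under 0.1, ended in it or within 5 nt of it. Of the members, 36.9% were joined, against 36.2% of non-members. The share joined went up with level, and between levels of 0.5 and 10 it was lower in members than in non-members of the same level class. Between levels of 1 and 2, 55.7% of the 2134 members were joined, with an exact 95% binomial interval of 53.6 to 57.8%, against 71.6% (71.1 to 72.1%) of the 32058 non-members. Between 2 and 5 the shares were 81.2% and 90.2%, and under 0.5 they were 4.33% and 4.25%. At the highest levels the order was turned, with 93.1% of 58 members against 92.2% of non-members between 50 and 100, where the intervals overlapped, and 94.6% of 37 members (81.8 to 99.3%) against 86.2% (83.3 to 88.8%) over 100, where they overlapped too. The intervals cover counting error only, and members were also longer in each class, at a median of 823 nt against 401 nt between levels of 1 and 2.

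**Figure D3:**
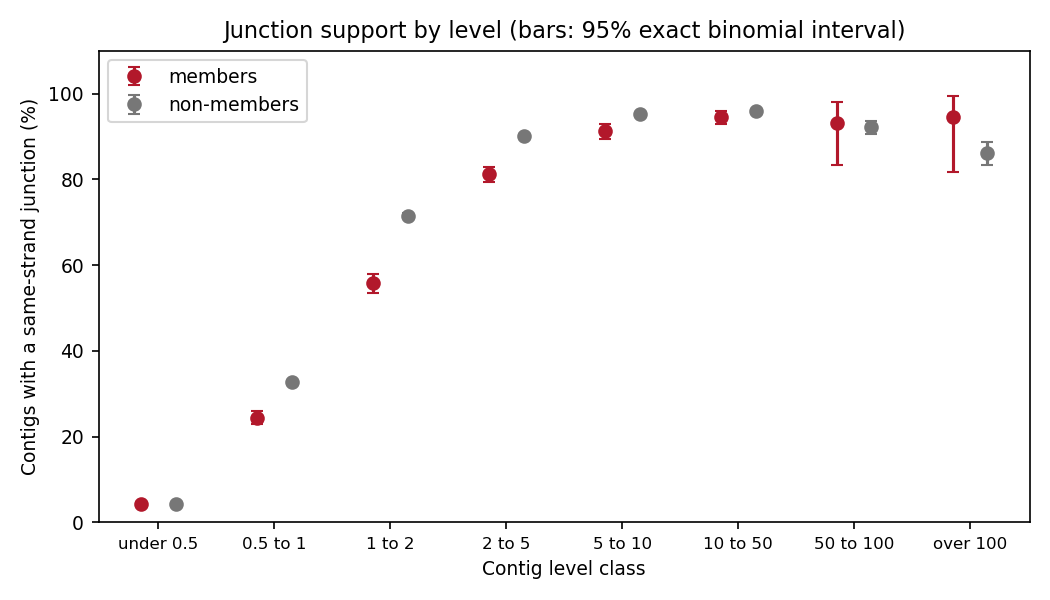
Percent of contigs with a junction of their own strand, for members (red) and non-members (grey), in 8 classes of contig level. Bars are exact 95% binomial intervals over contigs. Members lie below non-members, with intervals that do not overlap, in the 4 classes between levels of 0.5 and 10.

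Where 1 strand alone was joined, it was usually the higher one. The share joined goes up with level, as given above, and strands were not compared at matched levels. Both strands were joined in 947 pairs (10.6%), the higher strand alone in 4479 (50.3%), the lower strand alone in 375 (4.22%) and neither in 3095 (34.8%). Pairs joined on both strands had a median lower level of 1.84 and a median log2 ratio of 1.66. Pairs joined on the higher strand alone had a median lower level of 0.394 and a median log2 ratio of 2.75. Pairs joined on neither strand were low on both, with a median lower level of 0.282 and a median log2 ratio of 0.95. Of the lower strands, 20.6% were joined where the strands were within 2-fold, with an exact 95% interval of 19.1 to 22.2%, and 3.45% (0.947 to 8.59%) where they were over 100-fold apart. The lower strands of these 2 classes also differed in level, with medians of 0.41 and 0.247. Where the higher strand alone was joined, 10.02% of the lower contigs had an end within 10 nt of a junction end of the other strand, against 27.95% of their higher partners at junctions of their own strand. Of the 139927 junctions, 2 had the same ends as a junction of the other strand.

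Gene names were given to contigs through their splice junctions, because contigs and annotation are on different builds. A contig was tied to a gene where its junctions formed, with the exon between them, a chain of 2 introns whose lengths occur in 1 gene of GENCODE M21 on that chromosome and strand. Of the 139927 junctions, 118933 were tied to a gene, and 20 were when the annotation's strands were swapped. Both contigs were tied to a gene in 553 pairs (6.22%), which came to 453 pairs of genes and 869 genes, of which 830 are protein-coding. In 442 of the 453 (97.6%) the genes lie within 1 kb of each other or overlap in M21, a property the naming did not use. In 4409 further pairs 1 strand was tied to a gene, and it was the higher strand in 4053 of them (91.9%).

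The gene pairs were mostly convergent neighbours. In M21, 242 pairs (53.4%) are tail to tail, 181 (39.96%) head to head, 19 have a gene inside its partner and 11 lie between 1010 and 2557 nt apart. Lower-strand levels had a median of 4.42 in tail-to-tail pairs, 2.11 in head-to-head pairs and 2.63 where a gene lies inside its partner. The median log2 ratio was 1.34 tail to tail and 1.75 head to head. Over all 453, the strands were within 2-fold in 161 pairs (35.5%) and over 10-fold apart in 63 (13.9%). The contigs often overlapped where the annotated exons do not: M21 exons overlap by 100 nt or more in 262 gene pairs and do not overlap in 138. The other direction was also counted, for opposite-strand gene pairs in M21 with an exon overlap of 100 nt or more. At a mean of 1 TPM or more for each gene, 248 of 1003 such pairs (24.7%) were among the 453. With at least 2 introns in each gene as well, 248 of 826 (30.02%) were. With a mean of 10 TPM or more for each gene in addition, 173 of 344 (50.3%) were.

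Ctsa, which encodes the lysosomal protease cathepsin A, and Pltp, which encodes phospholipid transfer protein, converge on chromosome 2. The Pltp contig, chr2:164665528-164666133, stood at 60.7 and lay wholly inside the Ctsa contig, chr2:164662372-164666454, which stood at 38.2, so the overlap was 606 nt. The Pltp contig was touched by junction counts of 3571 under the code R1 and 3949 under R2, and the Ctsa contig by 9458 and 6069 (what R1 and R2 stand for is not stated). By gene, Pltp had 388.76 TPM in replicate 2 and 242.71 TPM in replicate 1, and Ctsa had 364.21 and 244.29 TPM. Both genes were within 2-fold between the libraries. The same Ctsa contig also met a second minus-strand contig, at 24.8 over 2260 nt, with no junction of its own.

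Col4a1 and Col4a2 encode the chains of the main type IV collagen of basement membranes and start from the shared promoter printed above. Their contigs had nearly equal levels, 38.8 for Col4a2 and 37.2 for Col4a1, and the Col4a2 contig, chr8:11312509-11313130, lay inside the Col4a1 contig, chr8:11312146-11313327. The overlap of 622 nt exceeded the 22 nt by which the annotated exons overlap. By gene, Col4a2 had 179.01 TPM in replicate 2 and 134.88 TPM in replicate 1, and Col4a1 had 258.4 and 195.21 TPM.

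Thra, which encodes thyroid hormone receptor alpha, and Nr1d1, which encodes the heme-binding clock repressor Rev-erb alpha, are a long-known convergent pair. The Thra contig, chr11:98629349-98630456, stood at 49.4 and the Nr1d1 contig, chr11:98629186-98634684, at 36.0, a fold of 1.37 over 1108 nt. Thra had 123.4 TPM in replicate 2 and 65.8 TPM in replicate 1, and Nr1d1 had 150.16 and 168.49 TPM. So the gene with the higher contig was the lower by gene TPM in both libraries.

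The other pairs among the 20 highest had lower-strand levels between 18.3 and 31.8. Shisa5, for a membrane protein of the endoplasmic reticulum, stood at 67.8 and Atrip, for the partner of the DNA damage kinase ATR, at 31.6, over 3278 nt. Shisa5 had 934.53 TPM in replicate 2 and 493.89 TPM in replicate 1, against 27.86 and 26.11 TPM for Atrip, so gene levels lay much further apart than contig levels. Agpat2, an acyltransferase of triglyceride synthesis, stood at 77.2 and Egfl7, a secreted factor of endothelium, at 21.8, over 3205 nt. Agpat2 had 1164.44 and 865.97 TPM in replicates 2 and 1, and Egfl7 had 350.08 and 370.33 TPM.

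Mrps34, a mitochondrial ribosomal protein gene, stood at 39.2 and Mapk8ip3, for a JNK scaffold, at 31.8, over 145 nt. Nfs1, the cysteine desulfurase of iron-sulfur clusters, stood at 37.0 and Romo1, for a mitochondrial inner membrane protein, at 31.4, head to head over 188 nt. Zfp513, a zinc finger gene, stood at 34.3 and Snx17, for an endosomal sorting nexin, at 28.5, over 318 nt. A contig of the G protein subunit gene Gnb2 at 101 met a plus-strand contig at 25.8 that touched 1 junction and was tied to no gene.

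Pcx, the pyruvate carboxylase of mitochondria, stood at 59.0 beside Rce1, a protease of prenylated proteins, at 18.6. Cd37, a tetraspanin of leukocytes, stood at 33.4 beside the transcription factor Tead2 at 19.8. Pkd1 and Tsc2, which encode polycystin-1 and the mTOR regulator tuberin, converged over 609 nt at 35.3 and 19.3. Eng, the endothelial TGF-beta co-receptor endoglin, stood at 31.9 and the folate enzyme gene Fpgs at 23.0, over 1320 nt. The contigs of Ilk, the integrin-linked kinase, and Taf10, a TFIID subunit, whose 3′ ends are printed above, overlapped by 2581 nt at 26.6 and 22.3.

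Slc39a7, a zinc transporter gene, stood at 35.5 and the retinoid receptor gene Rxrb at 22.2, head to head over 619 nt. Dalrd3 stood at 47.0 and Wdr6 at 19.2, and Dnm2, for the membrane fission GTPase dynamin 2, at 48.6 with Tmed1, for a secretory pathway protein, at 18.6. Tmem143 at 42.3 and Emp3 at 18.6, and Ppp2r5d, a regulatory subunit gene of phosphatase 2A, at 25 and Mea1 at 18.3, complete the 20.

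Near equal levels were found in 2 further pairs of this set. Stub1, the chaperone-linked ubiquitin ligase CHIP, stood at 25 and Jmjd8 at 24.5 over 1456 nt. Rpl36, a ribosomal protein gene, stood at 24.0 and Lonp1, a mitochondrial protease gene, at 23.5 over 419 nt. Rpl36 had 3353.38 TPM in replicate 2 and 1318.29 TPM in replicate 1, against 79.98 and 54.98 TPM for Lonp1. Nearly equal contig levels thus did not mean equal gene levels. Over all 444 gene pairs with TPM for both genes, the same gene had the higher TPM in both libraries in 390. In 285 of these it also had the higher contig, and in 105 it had the lower one. A contig level covers the whole contig, including its part outside the overlap, and a TPM covers the whole gene. A gene can also be spread over several contigs of unlike level, as Surf2 was with contigs at 13, 1.71 and 2.11. The level given for a gene is that of 1 contig. Whether the gene tables used strand is not stated, so reads of a gene and its antisense partner may not be told apart in TPM.

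**Figure D4:**
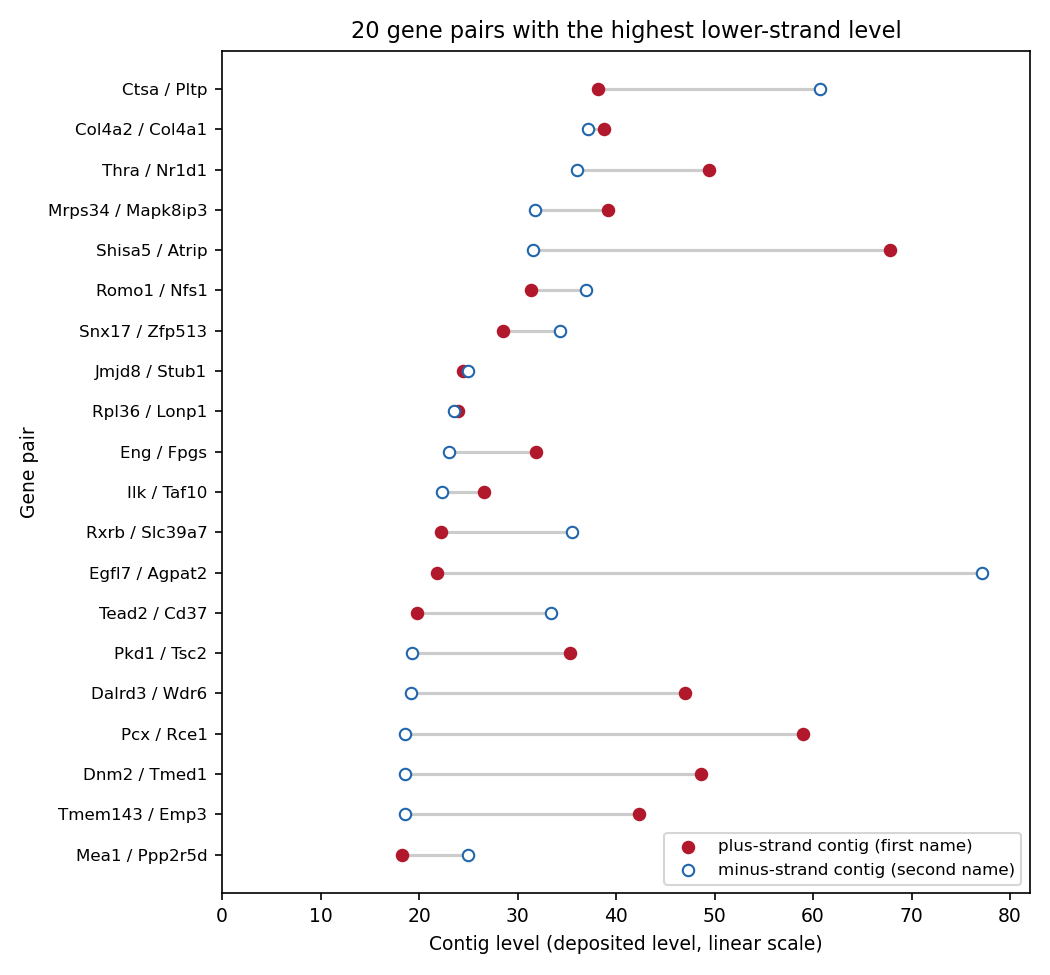
Deposited contig level, on a linear scale, of the 20 gene pairs with the highest lower-strand level, with the plus-strand gene filled and the minus-strand gene open. Each point is the 1 value deposited for the series, so there are no error bars. Levels differ least in Col4a2 and Col4a1, Jmjd8 and Stub1, and Rpl36 and Lonp1, and most in Agpat2 and Egfl7, at 77.2 and 21.8.

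The longest overlaps were not the highest. Spsb3, for a ubiquitin ligase adaptor, and Eme2, for a subunit of a DNA endonuclease, overlapped by 4487 nt at 10.8 and 6.38. Pisd-ps1 and Sfi1 overlapped by 4059 nt at 34.5 and 9.58, and reads of the pseudogene Pisd-ps1 may be shared with the gene it resembles. Hvcn1, a proton channel gene, and Tctn1, of the ciliary transition zone, overlapped by 3876 nt at 21.9 and 4.44. An Lsp1 contig at 36.7 met an untied minus-strand contig at 4.01 over 3845 nt, and a Tbc1d17 contig at 12.3 met an untied plus-strand contig at 1.47 over 3818 nt.

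Cfd, which encodes the adipocyte protease adipsin, had a contig at 3160, the highest of all members. Beneath it lay a minus-strand contig of 348 nt at 0.233 with no junction, and at its 3′ side a contig tied to Med16, a Mediator subunit, at 4.75, 665-fold below. Cfd and Med16 lie 2052 nt apart in M21. Among pairs whose lower strand reached 0.518, the median level of all contigs within the limit, the largest fold was at Car3, 629 over 0.558, followed by the Cfd and Med16 pair, and then by Aldoa, 592 over 0.929, Atp2a1, 745 over 1.31, and Tpt1, 282 over 0.531. Car3 is a carbonic anhydrase of fat and muscle, Aldoa a glycolytic aldolase, Atp2a1 the calcium pump of fast muscle and Tpt1 a translation-associated protein. Ckm, the muscle creatine kinase, had contigs at 368 and 348 with partners at 0.417 and 0.354. Aldh2, a mitochondrial aldehyde dehydrogenase gene, stood at 166 with 0.195 opposite, and Cox6a1, a cytochrome oxidase subunit gene, at 187 with 0.234 opposite. The Atp2a1 contig was touched by junction counts of 144495 under the code R1 and 28 under R2. The Ckm contigs at 368 and 348 had 44635 and 11, and 41903 and 12. The contigs of Cfd, Car3, Aldoa, Tpt1, Aldh2 and Cox6a1 had at least 2799 under each code. No label ties R1 or R2 to a replicate. Skeletal muscle markers were high in replicate 1, and the share of that library in these levels was not tested.

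At the other end, 5 pairs with a lower strand of at least 0.518 had the smallest ratios, none above 1.00-fold when rounded. Of these, 3 were tied to no gene on either strand. Stk10, for a lymphocyte kinase, stood at 2.74 on its own strand with 2.74 on the other over 168 nt, and Gpr162, for an orphan receptor, stood at 0.990 with 0.989 opposite.

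Of 49 genes at loci known for antisense or convergent transcription, 22 were tied to a member contig, and 5 gene pairs had both strands tied. Over all genes, 3180 were tied to a member contig. The list was not compared with other genes of like level, so the 22 are a description. Besides Thra and Nr1d1, the 5 gene pairs were Surf2 with Surf1, Surf2 with Surf4, Fgf2 with Nudt6, and Eef1b2 with Ndufs1. The Surf2 contig at the divergent start shown above stood at 13 and the Surf1 contig at 7.98 over 279 nt. At its other end, the Surf4 contig stood at 50.1 and a Surf2 contig at 2.11 over 200 nt. Surf1 is an assembly factor of cytochrome oxidase and Surf4 a cargo receptor of the endoplasmic reticulum. Surf4 had 302.96 TPM in replicate 2 and 215.56 TPM in replicate 1, Surf1 51.91 and 38.59 TPM, and Surf2 20.39 and 17.0 TPM.

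The growth factor gene Fgf2 and Nudt6, whose RNA is the known Fgf2 antisense transcript, overlapped by 1177 nt at 4.16 and 2.64. Fgf2 had 25.08 TPM in replicate 2, against 4.35 TPM in replicate 1, and Nudt6 had 34.46 TPM, against 18.23 TPM. Eef1b2, a translation elongation factor gene, stood at 65.7 and Ndufs1, of respiratory complex I, at 3.04 over 164 nt. Eef1b2 had 424.75 TPM in replicate 2 and 297.15 TPM in replicate 1, and Ndufs1 had 27.24 and 75.44 TPM, so Ndufs1 was beyond 2-fold in the direction of replicate 1.

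At the other listed loci 1 strand was tied. Bace1, the beta-secretase gene with a known antisense RNA, entered 8 pairs. In 2 of them the untied minus-strand contig, chr9:45664904-45666569, stood at 7.74, against 2.42 and 1.20 on the Bace1 strand, and Bace1 contigs at 8.98 and 8.70 lay opposite a longer minus-strand contig at 6.12, which in turn exceeded a Bace1 contig at 4.54. These 2 minus-strand contigs touched no junction. The paternally expressed gene Mest entered 5 pairs, the strongest with Mest at 45 and a minus-strand contig at 13.2. Zeb2, the epithelial-mesenchymal repressor with a known natural antisense transcript, entered 4 pairs with Zeb2 contigs between 1.14 and 5.55 and plus-strand contigs between 0.220 and 1.27. Its antisense gene Zeb2os had 0.26 TPM in replicate 2 and 1.26 TPM in replicate 1. The imprinted receptor gene Igf2r stood at 5.15 with 0.592 opposite. Ercc1, of DNA repair, and its neighbour Cd3eap, of RNA polymerase I, were each tied in 1 pair, at 2.71 with 0.781 opposite and at 2.75 with 0.191 opposite, but not to each other. In Sphk1, Dhrs4, Msh6, Copg2, Mkrn2 and Kcnq1 the tied strand was also the higher one in every pair. Xist, Tsix, Airn, Kcnq1ot1, Gnas and Nespas were tied to no member contig. A gene without 2 consecutive annotated introns could not be tied, so untied contigs may still belong to listed genes. Whether their RNAs are among the untied contigs, such as the one at 0.592 opposite Igf2r, was not tested.

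In 41 of the 453 gene pairs a protein-coding gene faced a gene that is not protein-coding in M21, and the gene that is not protein-coding had the lower contig in 35. Tmem147 stood at 56.7 and its antisense gene Tmem147os at 2.14 over 185 nt, with 159.33 and 259.55 TPM for Tmem147 in replicates 2 and 1 and 14.87 and 17.69 TPM for Tmem147os. Tbx3, a transcription factor gene of mammary bud formation, stood at 4.41 and Tbx3os1 at 0.529 over 199 nt. Tbx3 had 63.45 TPM in replicate 2 and 14.75 TPM in replicate 1, and Tbx3os1 had 0.29 and 1.61 TPM. Dll4, the endothelial Notch ligand, stood at 9.91 and Gm14207 at 0.775. In Lmx1b the order was turned, with C130021I20Rik at 5.14 and Lmx1b, a homeobox gene, at 4.03 over 265 nt, and C130021I20Rik also had the higher TPM, 36.18 and 19.63 in replicates 2 and 1, against 15.7 and 8.08 for Lmx1b.

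Between the libraries, 142 of the 852 pair genes with a mean of 1 TPM or more (16.7%) differed by more than 2-fold on log2(TPM + 1), against 21.8% of all 14510 genes at that mean. Of these, 102 were higher in replicate 2 (11.97%, against 13% of all genes) and 40 were higher in replicate 1 (4.69%, against 8.83%). The shares were near or below those of all genes, with no test possible in 1 group. The pair genes were named through junctions and are therefore seldom low: 844 of the 861 found in the gene tables reached 1 TPM in both libraries, and their median mean was 30.7 TPM.

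The largest differences were in genes of skeletal muscle. Mylpf, a myosin light chain of fast muscle, had 0.86 TPM in replicate 2, against 1260.04 TPM in replicate 1, and its contig at 142 overlapped a Sept1 contig at 13 over 1259 nt. Eno3, the muscle enolase, had 10.39 TPM in replicate 2, against 689.69 TPM in replicate 1. The contig of its neighbour Pfn1, the actin-binding profilin, at 162 lay opposite an Eno3 contig at 3.92. The genes Eno3 and Pfn1 lie 2557 nt apart in M21. Ryr1, the muscle calcium release channel, had 0.20 TPM in replicate 2, against 48.1 TPM in replicate 1. In the other direction, the RNA-binding protein gene Hnrnpab had 304.45 TPM in replicate 2, against 40.63 TPM in replicate 1, and the splicing factor gene Srsf2 had 873.96 TPM, against 148.34 TPM.

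**Figure D5:**
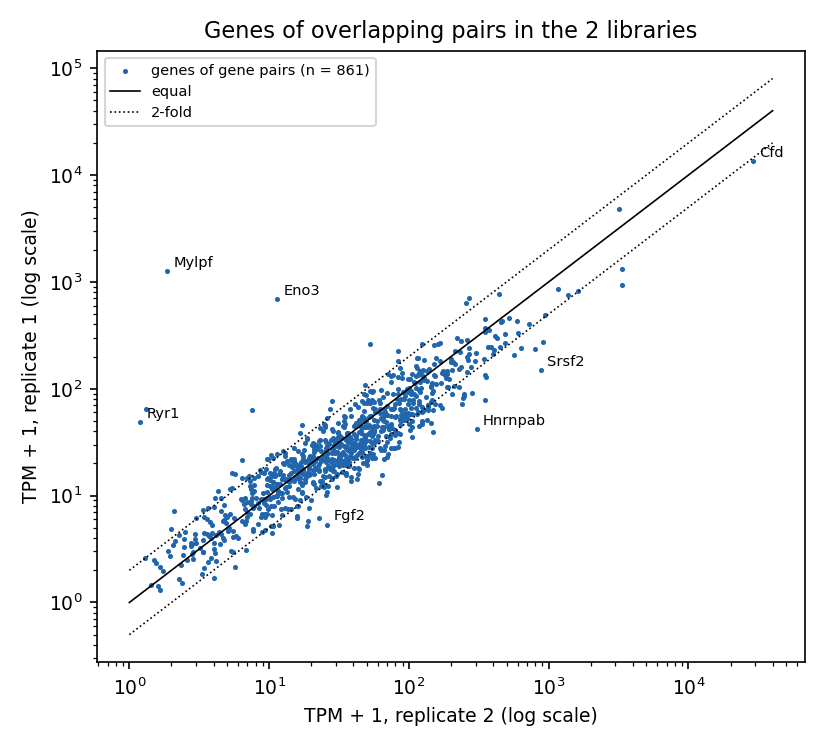
TPM + 1 of 861 genes of the gene pairs in replicate 2 (x, log scale) and replicate 1 (y, log scale), 1 point per gene. The solid line marks equal values and the dotted lines a 2-fold difference. Mylpf, Eno3 and Ryr1 lie far above the lines, and Hnrnpab, Srsf2 and Fgf2 below them.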

How the data were processed

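The members and gene lists were chosen with earlier results of these data known. Contigs and junctions come as 1 table each for the whole series on mm9, per the labels' text notes, and the sources used here name no caller. The contig signal deposited by the authors has no stated unit, and the score deposited by the authors for contigs and junctions has no stated meaning. The junction count deposited by the authors equals R1 plus R2 in the junction's name, and what R1 and R2 stand for is not stated. TPM and expected counts per gene were deposited by the authors for each library, on mm10 with GENCODE M4 per the labels' text notes, and the sources used here name neither aligner nor quantifier.

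Opposite-strand overlaps, level ratios and junction support were computed with Python 3.11.15, numpy 2.4.6, pandas 2.3.3 and scipy 1.17.1, and coordinates are given 1-based. Junctions had a score under 0.1 and a count of at least 2. Contigs were tied to GENCODE M21 genes by the lengths of 2 consecutive introns and the exon between them, on the same chromosome and strand, with no coordinates moved between builds. Among junctions with a count of 10 or more, 96.5% had a length found among M21 introns of their own strand and 65.7% had one found on the other strand. The gene of the tied junction nearest to the overlap was taken. TPM was compared as log2(TPM + 1), replicate 2 over replicate 1, for genes with a mean of at least 1 TPM, and called beyond 2-fold. The steps were tested on simulated data. Named pairs were the 10 with the highest lower strand, the 5 longest overlaps, the 5 largest and 5 smallest ratios with a lower strand at or above the median contig level, the 20 highest gene pairs and a list of 49 genes at known loci. One member of that list is not reported here. Genes named for their difference between libraries, for a partner that is not protein-coding, and Ckm, Aldh2 and Cox6a1 were chosen after their values were seen. No p-value is given, since there is 1 group. Intervals are exact binomial (Clopper-Pearson), at 95%, and cover counting error only. Transcript tables were not used.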

Additional observations from a re-analysis of the deposited data

Results flagged for a closer look

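On the mitochondrial chromosome, outside the rule, 2 pairs of contigs overlapped on opposite strands. A minus-strand contig at positions 9259 to 10011 of mm9, with a level of 0.452, met plus-strand contigs at 0.93 over 464 nt and at 0.322 over 257 nt. They were looked at because they are a signal of the same kind in data that the comparisons leave out, above a count of 0. The table holds 8 contigs on that chromosome.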

How the results depend on the processing

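The level ratio moved little and the size of the set moved most. With the score under 0.05, members were 4.80% of contigs and 45.8% of pairs had a contig wholly inside its partner. With the score under 0.01 there were 2872 members, 3.31% of contigs, with a median log2 ratio of 1.93 and 38.8% inside. With no limit on the score there were 31981 members, 4.57% of contigs, with a median log2 ratio of 2.00 and 61.8% inside. With overlaps of 1, 50 and 200 nt, members were 5.76%, 5.43% and 4.12% of contigs and 43.4%, 46.1% and 50.4% of pairs were inside. Requiring the overlap to cover at least 50% of the shorter contig as well gave 4.42% and 57.0%. Joined members were 47.5% with all junctions, 10.3% with junction ends within 10 nt of a contig end and 34.4% with a junction count of 10 or more. Pairs tied on both strands numbered 431 with chains of 3 introns and 170 with 1 intron of unique length, since few single lengths are unique. Genes at 1 TPM or more numbered between 848 without replicate 1 and 853 without replicate 2. Pair genes beyond 2-fold between libraries numbered between 122 and 170 under other units, pseudocounts and filters. Chosen after seeing the data, leaving out pairs whose higher strand was over 100 gave a median log2 ratio of 1.82, and leaving out gene pairs over 1 kb apart gave 540 pairs. No paired analysis was possible because there is 1 group. With 1 contig table for both libraries, no contig value has a replicate error.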
